A study of Homo sapiens with 18 samples.

Results

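The comparison asks what RNA changes when the tyrosines in the EWS part of the Ewing sarcoma fusion protein are altered. It set 3 untreated libraries of U2OS cells carrying mCherry-EWS-FLI1 against 3 untreated libraries of U2OS cells carrying mCherry-EWS(YS37)-FLI1. These 6 libraries were picked by their titles out of 18. U2OS is a human osteosarcoma line, and every construct was integrated in its genome with an mCherry tag. Untreated cells with mCherry-EWS-FLI1mut and with mCherry alone, 3 libraries each, are given beside the comparison. EWS-FLI1 cells treated with the CDK4/6 inhibitor LY2835219 entered the estimate of the spread only.

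All cells grew in DMEM with serum, and polyA RNA was sequenced. The sources used here name biological replicates, and do not state separate cultures, a clone or a pool, the promoter of the constructs, or the position of the changed tyrosines. They also leave EWS-FLI1mut undefined and list 2 library kits without assigning them to libraries. The adjusted p values therefore measure the spread between these libraries, which may be technical in part.

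EWS, the product of EWSR1, is an RNA-binding protein whose N-terminal part is a low-complexity domain of repeats rich in tyrosine, serine, glycine and glutamine. In Ewing sarcoma a translocation joins this part to FLI1, an ETS transcription factor whose DNA-binding domain reads GGAA motifs, and the fusion can act at stretches of repeated GGAA that FLI1 alone does not use well. The tyrosines let the domain associate with itself and with partners such as the BAF chromatin remodelling complex and RNA polymerase II, and variants with tyrosine replaced by serine (YS) have been used to weaken this association. EWS-FLI1 is known both to activate genes and to lower others, among them genes of the mesenchymal matrix.

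The tyrosine codons lie close together in the normal EWSR1 coding sequence. Transcript ENST00000397938 of GENCODE 29 encodes 656 residues with 42 tyrosine codons, of which the 37th is codon 261 and the next is codon 278. Codons 162 to 261 are shown because they hold 16 of these codons and end at the 37th. They lie at chr22:29282460-29287124 of GRCh38 on the plus strand, in the coding part of 2 exons. Capitals mark the tyrosine codons of the normal sequence, and the codons of the constructs were not analysed here.
EWSR1 codons 162 to 261: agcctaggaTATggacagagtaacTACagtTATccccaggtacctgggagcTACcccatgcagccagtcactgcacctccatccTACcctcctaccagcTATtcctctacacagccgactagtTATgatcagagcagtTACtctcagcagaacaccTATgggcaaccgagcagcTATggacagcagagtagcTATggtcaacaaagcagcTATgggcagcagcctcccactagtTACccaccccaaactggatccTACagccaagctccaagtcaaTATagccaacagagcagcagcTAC

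FLI1 RNA, which in U2OS comes nearly all from the constructs, was lower in EWS-FLI1 cells. FLI1 (chr11:128686535-128813267) had 265, 232 and 245 CPM (counts scaled to library size) in EWS-FLI1 cells, against 1001, 986 and 1069 CPM in EWS(YS37)-FLI1 cells (log2 fold change -2.04 ± 0.09 SE, adjusted p = 7.3e-14). Every EWS-FLI1 library lay well below every EWS(YS37)-FLI1 library, with EWS-FLI1mut cells in between at 642 ± 19.9 CPM and mCherry cells at 0.546 ± 0.563 CPM (SD, n = 3). EWSR1 (chr22:29268009-29300525), whose counts add the normal gene to the construct, had 742, 724 and 751 CPM in EWS-FLI1 cells, against 948, 918 and 975 CPM in EWS(YS37)-FLI1 cells (-0.36 ± 0.05, adjusted p = 2.93e-06). The altered tyrosines and the amount of construct RNA thus differ between the same groups, and their parts in every difference below cannot be told apart.

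Reads of the EWS part were placed on different EWSR1 transcripts in the 2 lines. A short transcript, ENST00000485037, held 588 ± 72.3 TPM in EWS-FLI1 cells, 1.93 ± 1.29 TPM in EWS(YS37)-FLI1 cells, 736 ± 127 TPM in EWS-FLI1mut cells and 2.54 ± 2.26 TPM in mCherry cells. ENST00000455726 had 241 ± 36 TPM in EWS-FLI1 cells and 5.75 ± 1.79 TPM in EWS(YS37)-FLI1 cells. The order was opposite for ENST00000447973, listed at 0 in all EWS-FLI1 libraries and at 386 ± 40.5 TPM in EWS(YS37)-FLI1 cells, and for ENST00000437155, at 88.8 ± 17.5 TPM in EWS-FLI1 cells and 675 ± 52 TPM in EWS(YS37)-FLI1 cells. The full-length ENST00000406548 had 144 ± 11.9 TPM in EWS-FLI1 cells, 153 ± 2.28 TPM in EWS(YS37)-FLI1 cells and 139.7 ± 10.8 TPM in mCherry cells (all SD, n = 3).

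The EWS(YS37)-FLI1 libraries also gave fewer EWSR1 reads for each FLI1 read. After the mCherry mean was taken off, the EWSR1 to FLI1 CPM ratio was 1.52, 1.65 and 1.68 in EWS-FLI1 cells and 0.607, 0.586 and 0.594 in EWS(YS37)-FLI1 cells. It was 1.33, 1.29 and 1.27 in EWS-FLI1mut cells. Of the 753 windows of 31 bases up to codon 261, 90.8% touch a tyrosine codon in the normal sequence. How far changed codons kept construct reads from being counted for EWSR1 was not tested. FLI1 and not EWSR1 is therefore the gene by which the constructs' RNA is described here.

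**Figure D1:**
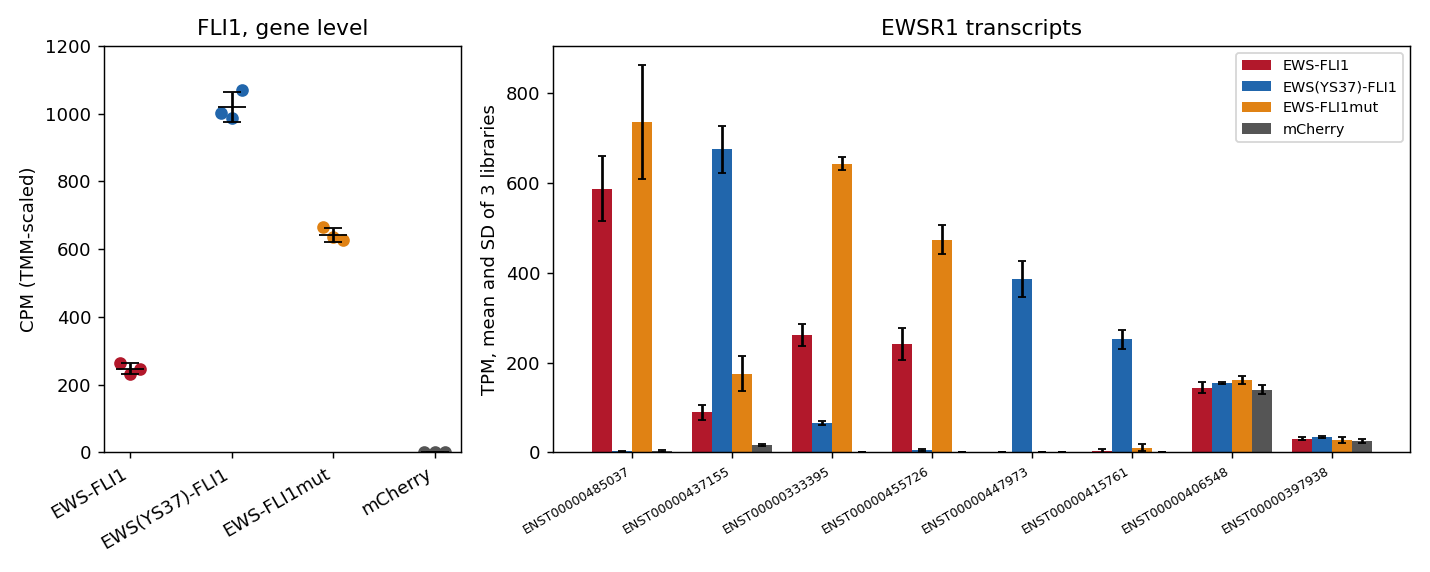
Construct RNA. The left panel plots FLI1 CPM per library in the 4 untreated groups with the mean and SD, and the right panel plots the TPM of 8 EWSR1 transcripts as mean and SD of 3 libraries per group. FLI1 lies between 232 and 265 CPM in EWS-FLI1 cells and between 986 and 1069 CPM in EWS(YS37)-FLI1 cells, and ENST00000485037 stands high in EWS-FLI1 and EWS-FLI1mut cells but near 0 in EWS(YS37)-FLI1 and mCherry cells.

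The 6 libraries held 18766232 to 19508221 estimated counts in EWS-FLI1 cells and 17900873 to 20270637 in EWS(YS37)-FLI1 cells. Mitochondrial transcripts took 4.55% to 5.10% of counts in EWS-FLI1 cells and 4.58% to 4.82% in EWS(YS37)-FLI1 cells. Among the 12 untreated libraries, the first principal component (22.6% of the variance) set the EWS(YS37)-FLI1 libraries apart from all others, and the second (15.6%) set the EWS-FLI1 libraries apart. Of 18 genes in a list of osteoblast and bone matrix markers, 12 were abundant enough to test, and the 18 summed to 252.8 to 277 CPM in EWS-FLI1 cells, 223.1 to 241.7 CPM in EWS(YS37)-FLI1 cells and 271 to 287.1 CPM in mCherry cells. RUNX2, the osteoblast master regulator, was higher by 0.66 ± 0.08 and was the only member called, with 11 not called and a list median of 0.15. Over all genes 31.1% were called. DMP1 had no count in either group and IBSP had none in EWS-FLI1 cells. Replication-dependent histone genes, whose transcripts mostly lack a polyA tail and which were listed as a sign of RNA quality in polyA libraries, were 8 higher and 0 lower of 13 tested by edgeR and likewise by DESeq2 (median 0.44), with 0 lower at an unadjusted p under 0.05. Relative to mCherry on the log2 scale the list lay at -0.16, -0.01 and 0.36 in EWS-FLI1 libraries and at -0.31, -0.32 and -0.28 in EWS(YS37)-FLI1 libraries, so EWS-FLI1 replicate 3 stood highest. HIST1H2BC, higher by 0.86 ± 0.23, lost its call without that library (0.55), and glmTreat, which asks for a change beyond 0.5, called 1 histone higher. The part of RNA quality in the differences that follow was not tested.

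Of 16788 genes tested, 5225 (31.1%) were called at an adjusted p under 0.05. EWS-FLI1 cells were higher for 2493 genes (14.8%) and lower for 2732 (16.3%). Most changes were small, since 425 genes (2.53%) were higher and 305 (1.82%) lower by at least 1 on the log2 scale, and 41 and 25 by at least 3. For 7207 genes (42.9%) the libraries of the groups did not overlap. These shares over all genes are the background for the list counts and the statements on overlap that follow. The median log2 fold change of all tested genes was -0.02. Higher genes made up 47.7% of the calls, and 61.9% of the 2990 calls of limma on log2(TPM + 1).

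**Figure D2:**
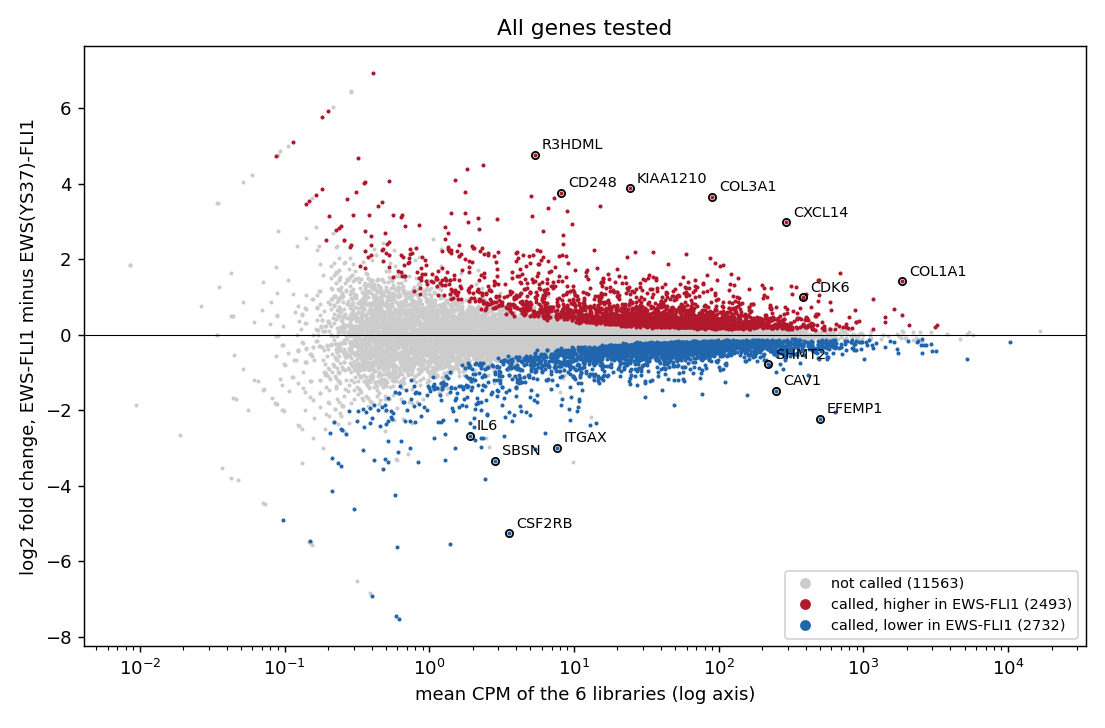
All 16788 tested genes. Each point is a gene, with its mean CPM on a log axis across and the log2 fold change of EWS-FLI1 minus EWS(YS37)-FLI1 upward, called genes coloured. R3HDML stands highest among the labelled genes at 4.76 and CSF2RB lowest at -5.26, and the 2493 higher and 2732 lower calls come nearer to 0 as the mean CPM grows.

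R3HDML and KIAA1210 had the largest increases among the genes named here. R3HDML (chr20:44336986-44351235), which encodes a putative secreted protease inhibitor, had 11.2, 8.98 and 10.8 CPM in EWS-FLI1 cells, against 0.682, 0.158 and 0.305 CPM in EWS(YS37)-FLI1 cells (log2 fold change 4.76 ± 0.34 SE, adjusted p = 2.54e-10). KIAA1210 (chrX:119078635-119150579), a little-studied gene, had 44.8, 49.6 and 41.7 CPM in EWS-FLI1 cells, against 3.35, 2.79 and 3.10 CPM in EWS(YS37)-FLI1 cells (3.88 ± 0.13, adjusted p = 4.24e-16). Neither gene's libraries overlapped between the groups, and mCherry cells lay between them, at 4.43 ± 0.723 CPM for R3HDML and 11.6 ± 1.74 CPM for KIAA1210. Without EWS(YS37)-FLI1 replicate 1 the value for R3HDML was 5.45.

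CD248 (endosialin), a surface protein of stromal cells, had 11.9, 17.6 and 16.3 CPM in EWS-FLI1 cells, against 1.31, 0.737 and 1.32 CPM in EWS(YS37)-FLI1 cells (log2 fold change 3.76 ± 0.30 SE, adjusted p = 1.76e-09). CAPN6, a calpain without protease activity that binds microtubules, had 6.90, 12 and 9.24 CPM in EWS-FLI1 cells, against 0.853, 0.895 and 0.458 CPM in EWS(YS37)-FLI1 cells (3.67 ± 0.30, adjusted p = 2.85e-09). SCX (scleraxis), the transcription factor of tendon cells, had 18.7, 17.7 and 14.9 CPM in EWS-FLI1 cells, against 2.22, 2.32 and 2.19 CPM in EWS(YS37)-FLI1 cells (2.93 ± 0.18, adjusted p = 1.73e-11). In all 3 genes the EWS-FLI1 libraries were the highest of the 4 untreated groups by their means, with mCherry cells at 2.81 ± 1.08 CPM for CD248, 2.46 ± 0.473 CPM for CAPN6 and 3.65 ± 0.971 CPM for SCX.

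The neighbouring genes CRYBA4 (chr22:26621964-26630672) and CRYBB1 (chr22:26599278-26618088) encode beta-crystallins, structural proteins of the lens, and rose together. CRYBA4 had 9.56, 8.98 and 17.6 CPM in EWS-FLI1 cells, against 1.65, 0.421 and 1.48 CPM in EWS(YS37)-FLI1 cells (log2 fold change 3.35 ± 0.39 SE, adjusted p = 6.13e-07). CRYBB1 had 9.40, 8.35 and 9.83 CPM in EWS-FLI1 cells, against 1.53, 0.579 and 1.02 CPM in EWS(YS37)-FLI1 cells (3.14 ± 0.28, adjusted p = 1.06e-08). The pair lies on opposite strands, and the groups did not overlap for either gene. GGTLC2, of a family of near-identical gamma-glutamyltransferase copies, was higher by 3.08 ± 0.44, a value that is uncertain because reads may be split among the copies.

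CXCL14, a chemokine made by epithelial and stromal cells, differed between the constructs but not detectably between EWS-FLI1 and mCherry. It had 547, 547 and 471 CPM in EWS-FLI1 cells, against 75.2, 57.3 and 65.5 CPM in EWS(YS37)-FLI1 cells (log2 fold change 2.98 ± 0.12 SE, adjusted p = 2.06e-14). EWS-FLI1 minus mCherry, in which 3537 genes (21.1%) were called, gave 0.02 ± 0.11 (adjusted p = 0.944). EWS(YS37)-FLI1 minus mCherry, in which 3642 genes (21.7%) were called, gave -2.97 ± 0.12 (adjusted p = 1.84e-14). The EWS(YS37)-FLI1 libraries were the low ones, with mCherry cells at 516 ± 83.1 CPM and EWS-FLI1mut cells at 468 ± 54.6 CPM.

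MYOCD (myocardin), a coactivator of SRF that drives smooth muscle genes, followed another order. It had 8.33, 15.4 and 8.06 CPM in EWS-FLI1 cells, against 1.99, 1.47 and 1.32 CPM in EWS(YS37)-FLI1 cells (log2 fold change 2.73 ± 0.32 SE, adjusted p = 6.93e-07). Both constructs lay below mCherry cells, which had 23.1 ± 2.74 CPM, and the EWS(YS37)-FLI1 cells lay lowest. Among 22 tested smooth muscle and SRF target genes, 10 were higher and 4 lower, with a median of 0.21 against -0.02 over all genes. The contractile genes CALD1 (0.73), TPM1 (0.65), TAGLN (0.47) and MYL9 (0.30) were higher, and MYLK (-0.51), the myosin light chain kinase, was lower. Without EWS-FLI1 replicate 1 the list had 7 higher and 2 lower members and a median of 0.15. Without EWS(YS37)-FLI1 replicate 1 or replicate 3 it had 9 higher and 2 lower.

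**Figure D3:**
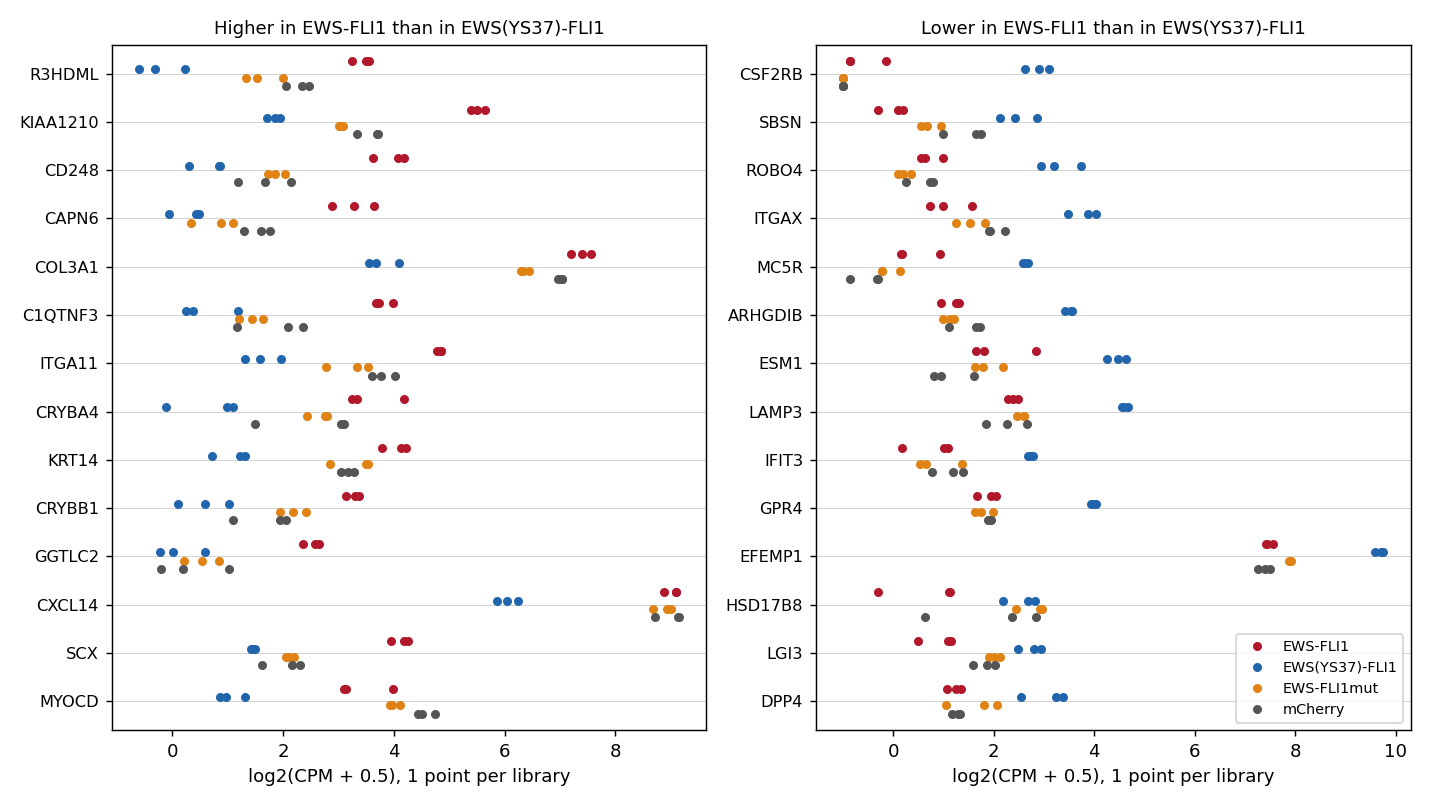
The 14 genes higher and the 14 genes lower with the largest fold changes. Each point is 1 library, placed by log2(CPM + 0.5), in the order EWS-FLI1, EWS(YS37)-FLI1, EWS-FLI1mut and mCherry. The 3 EWS-FLI1 points and the 3 EWS(YS37)-FLI1 points do not overlap in any gene, which the choice of genes required, and the mCherry points lie near the EWS-FLI1 points for CXCL14 and EFEMP1 and in between for KIAA1210.

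Genes lower in EWS-FLI1 cells included several that are characteristic of blood and vessel cells. CSF2RB (chr22:36913628-36940449), the shared beta chain of the receptors for GM-CSF, IL-3 and IL-5, had 8, 1 and 1 counts in EWS-FLI1 cells, against 100, 133 and 158 counts in EWS(YS37)-FLI1 cells (log2 fold change -5.26 ± 0.58 SE, adjusted p = 8.67e-07). It had no count in any EWS-FLI1mut or mCherry library, and without EWS-FLI1 replicate 1, which held most of its EWS-FLI1 counts, the value was -6.85. ITGAX (chr16:31355134-31382997), integrin CD11c of myeloid cells, had 1.48, 1.16 and 2.47 CPM in EWS-FLI1 cells, against 14.1, 10.7 and 15.8 CPM in EWS(YS37)-FLI1 cells (-2.99 ± 0.24, adjusted p = 1.52e-09). The EWS(YS37)-FLI1 libraries were the high ones for both genes, with mCherry cells at 3.57 ± 0.511 CPM for ITGAX.

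ROBO4, a guidance receptor of endothelial cells, had 1.48, 1.05 and 0.967 CPM in EWS-FLI1 cells, against 12.9, 8.69 and 7.18 CPM in EWS(YS37)-FLI1 cells (log2 fold change -3.03 ± 0.29 SE, adjusted p = 2.46e-08). ESM1, a proteoglycan secreted by endothelium, had 6.70, 2.99 and 2.63 CPM in EWS-FLI1 cells, against 18.6, 21.9 and 24.4 CPM in EWS(YS37)-FLI1 cells (-2.39 ± 0.27, adjusted p = 3.79e-07). LAMP3, a lysosomal membrane protein of mature dendritic cells, had 4.70, 4.36 and 5.10 CPM in EWS-FLI1 cells, against 25.1, 22.9 and 23.8 CPM in EWS(YS37)-FLI1 cells (-2.34 ± 0.19, adjusted p = 1.4e-09). None of the 3 genes overlapped between the groups. The mCherry mean lay within the EWS-FLI1 range for ROBO4 (1.02 ± 0.295 CPM) and LAMP3 (4.4 ± 1.35 CPM) and below it for ESM1 (1.75 ± 0.701 CPM).

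Other markers of those cell types stood as follows. Of 20 leukocyte markers 14 were tested, with 0 higher and 6 lower by edgeR and a median of -0.64. At an unadjusted p under 0.05 the counts were 2 higher and 8 lower, and DESeq2 called 1 higher and 6 lower. The median was -0.40, with 5 lower, without EWS-FLI1 replicate 1, and 1 was higher without EWS-FLI1 replicate 2. The 20 markers' sum was 37.1 to 47.4 CPM in EWS-FLI1 cells, 91.2 to 104.5 CPM in EWS(YS37)-FLI1 cells and 46.2 to 53.01 CPM in mCherry cells. PTPRC (CD45), carried by all leukocytes, had 0.562, 0.997 and 1.13 CPM in EWS-FLI1 cells and 0.227, 1.00 and 0.611 CPM in EWS(YS37)-FLI1 cells (0.53 ± 0.49, adjusted p = 0.452), while ITGAL had no count in EWS-FLI1 cells and TYROBP none in EWS(YS37)-FLI1 cells. Of 20 endothelial markers 1 was higher and 5 lower (median -0.26), against 14.8% and 16.3% over all genes. The sum of these markers was 126.5 to 133.9 CPM in EWS-FLI1 cells, 150.8 to 163.9 CPM in EWS(YS37)-FLI1 cells and 93.6 to 106.5 CPM in mCherry cells. The endothelial median was -0.14 (4 lower) without EWS-FLI1 replicate 2, -0.17 (3 lower) without EWS-FLI1 replicate 3 and -0.15 (4 lower) without EWS(YS37)-FLI1 replicate 2. KDR, the VEGF receptor of endothelium, had 0.613, 0.578 and 0.322 CPM in EWS-FLI1 cells and 0.455, 0 and 0.407 CPM in EWS(YS37)-FLI1 cells (0.81 ± 0.82, adjusted p = 0.501). PTPRC and KDR were thus at or below about 1 CPM in both groups, and they were singled out after their values were seen. All libraries are of the U2OS line, so these values describe RNA of U2OS cells and not numbers of blood or vessel cells. Bulk RNA does not show whether all cells or a part of them carry a difference.

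Outside those lineages, EFEMP1 (fibulin-3), a glycoprotein of elastic matrix, was lower in EWS-FLI1 cells, which stood near mCherry cells. It had 169, 188 and 172 CPM in EWS-FLI1 cells, against 767, 862 and 836 CPM in EWS(YS37)-FLI1 cells (log2 fold change -2.22 ± 0.07 SE, adjusted p = 1.53e-16). EWS-FLI1 minus mCherry gave 0.09 ± 0.07 (adjusted p = 0.367) and EWS(YS37)-FLI1 minus mCherry 2.31 ± 0.07 (adjusted p = 3.49e-17). GPR4, a proton-sensing receptor, had 3.63, 3.36 and 2.69 CPM in EWS-FLI1 cells, against 16, 14.9 and 15.5 CPM in EWS(YS37)-FLI1 cells (-2.26 ± 0.23, adjusted p = 8.67e-08), with mCherry cells at 3.27 ± 0.0921 CPM. MC5R, a melanocortin receptor, was lower by the same measure, at 0.613, 0.630 and 1.40 CPM in EWS-FLI1 cells and 5.57, 5.95 and 5.50 CPM in EWS(YS37)-FLI1 cells (-2.68 ± 0.39, adjusted p = 1.04e-05).

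Collagen genes were among the groups that shifted most. Of 36 tested collagen chains, 16 were higher and 4 lower in EWS-FLI1 cells, with a median log2 fold change of 0.65 against -0.02 over all genes. COL3A1 (chr2:188974320-189012746), the fibrillar collagen of soft connective tissue, had 147, 187 and 168 CPM in EWS-FLI1 cells, against 16.7, 12.3 and 11.2 CPM in EWS(YS37)-FLI1 cells (3.65 ± 0.12 SE, adjusted p = 4.24e-16). COL1A1, the main chain of bone collagen, had 2731, 2654 and 2677 CPM in EWS-FLI1 cells, against 1113, 903 and 1016 CPM in EWS(YS37)-FLI1 cells (1.41 ± 0.09, adjusted p = 4.56e-11). COL11A1, a fibrillar collagen of cartilage, had 171, 166 and 169 CPM in EWS-FLI1 cells, against 50.1, 41.0 and 50.9 CPM in EWS(YS37)-FLI1 cells (1.83 ± 0.08, adjusted p = 5.37e-14). The EWS-FLI1 libraries were the high ones in all 3, and mCherry cells, at 128 ± 3.95 CPM for COL3A1, 1692 ± 110.4 CPM for COL1A1 and 123 ± 12 CPM for COL11A1, stood between the constructs.

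Not all chains moved that way. COL13A1, a transmembrane collagen, was lower, at 15.9, 12.7 and 16.1 CPM in EWS-FLI1 cells and 49.6, 42.5 and 49 CPM in EWS(YS37)-FLI1 cells (log2 fold change -1.66 ± 0.12 SE, adjusted p = 2.84e-10). COL5A2, which co-assembles with type I collagen, had 124, 126 and 117 CPM in EWS-FLI1 cells and 148, 129 and 134 CPM in EWS(YS37)-FLI1 cells (-0.16 ± 0.07, adjusted p = 0.0796). COL1A2, the partner chain of COL1A1, was low in both groups, at 1.27 CPM on average in EWS-FLI1 cells and 0.567 CPM in EWS(YS37)-FLI1 cells (1.16 ± 0.52, adjusted p = 0.0953). COL5A2 and COL1A2 were singled out after their values were seen. The count of lower chains was 2 without EWS-FLI1 replicate 3, EWS(YS37)-FLI1 replicate 2 or EWS(YS37)-FLI1 replicate 3. Genes for modifying and crosslinking collagen split, with 8 higher and 10 lower of 26 tested (median 0.05, and 0.02 without EWS-FLI1 replicate 1 or EWS(YS37)-FLI1 replicate 3), the chaperone SERPINH1 (0.57) and the crosslinking enzyme LOXL1 (1.24) being higher and LOXL3 (-0.75) and LOX (-0.23) lower.

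Other matrix genes shifted with the collagens. Of 45 tested matrix glycoproteins and proteoglycans 25 were higher and 7 lower, with a median of 0.30. Fibronectin (FN1) had 1487, 1287 and 1865 CPM in EWS-FLI1 cells, against 966, 574 and 861 CPM in EWS(YS37)-FLI1 cells (log2 fold change 0.95 ± 0.16 SE, adjusted p = 4.94e-05). The small leucine-rich proteoglycans lumican (LUM, 1.72 ± 0.16) and biglycan (BGN, 2.19 ± 0.29), the collagen-binding SPARC (0.52 ± 0.06) and the microfibril protein MFAP2 (1.06) were higher. The laminin chain LAMA4 (-0.87 ± 0.11) and the heparan sulphate proteoglycan SDC4 (-0.68 ± 0.07) were lower. The lowest EWS-FLI1 library for FN1 was above the highest EWS(YS37)-FLI1 library.

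The enzymes that cut matrix and the receptors that bind it were mixed. MMP2, gelatinase A, had 676, 748 and 743 CPM in EWS-FLI1 cells, against 297, 234 and 261 CPM in EWS(YS37)-FLI1 cells (log2 fold change 1.45 ± 0.09 SE, adjusted p = 3.57e-11). MMP13, the collagenase of bone and cartilage, was higher by 2.63 ± 0.21, and the inhibitor TIMP1 by 1.07 ± 0.11. Of 16 metalloproteinases and inhibitors 7 were higher and 4 lower (median 0.23). Of 23 integrins 8 were higher and 6 lower (median 0.01), which is near the all-gene median. That median was between -0.07 (without EWS-FLI1 replicate 1) and 0.08 (without EWS(YS37)-FLI1 replicate 1) when 1 library was left out, and 4 were lower without EWS-FLI1 replicate 3. ITGA11, whose protein binds fibrillar collagen, had 26.8, 28.4 and 28.3 CPM in EWS-FLI1 cells, against 3.41, 2.00 and 2.49 CPM in EWS(YS37)-FLI1 cells (3.40 ± 0.21, adjusted p = 2.12e-11), and with offsets for transcript length the value was 2.45. ITGB3, the beta chain of the vitronectin receptor, had 42.6, 40.8 and 47.1 CPM in EWS-FLI1 cells, against 12.2, 7.21 and 9.52 CPM in EWS(YS37)-FLI1 cells (2.18 ± 0.14, adjusted p = 4.77e-11). The integrins that were lower, ITGAX, ITGAM and ITGB2 among them, include those of leukocytes, and the call of ITGAM was lost without EWS-FLI1 replicate 1 or replicate 3.

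Collagen transcripts are long, and length was related to the fold change. The median length of the 36 collagens was 5772 bases, against 2124 bases over all tested genes. With the tested genes split by main transcript into 5 bins, shortest first, the median log2 fold change was -0.02, -0.09, -0.06, -0.01 and 0.08. In the longest bin 26.6% of genes were called higher and 12.3% lower. The offsets for transcript length follow changes between libraries in a gene's average effective length. A length that all libraries share cancels in them, so they do not address the trend across bins. With these offsets 3004 genes were called, and 13 collagens were higher and 3 lower. With offsets for length and GC content, chosen after the data were seen, 5439 genes were called, and 16 collagens were higher and 7 lower. The part of length in the list's shift was not tested.

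**Figure D4:**
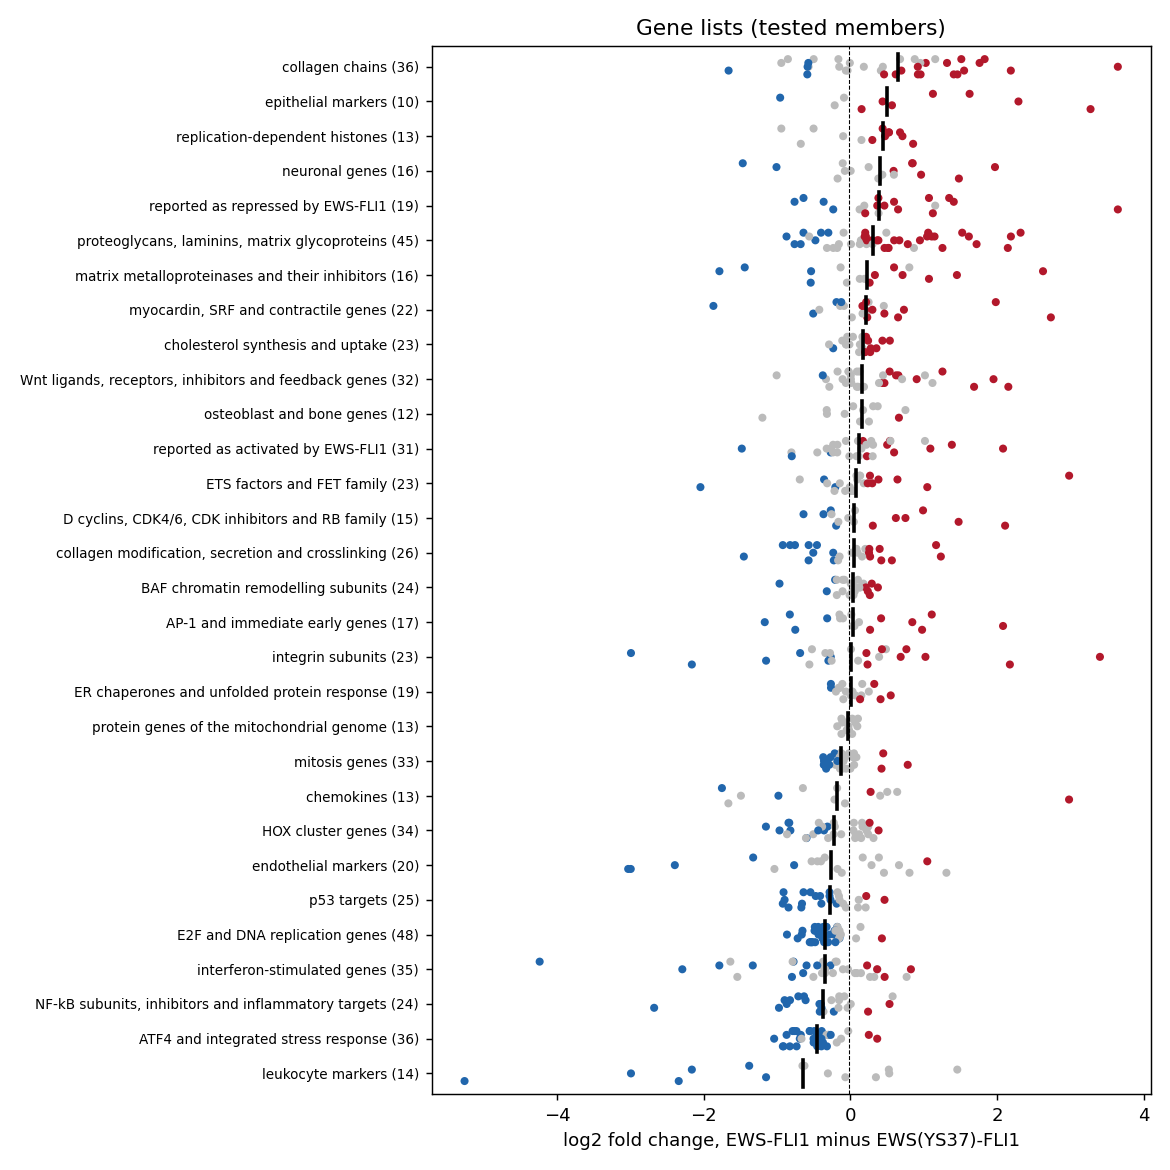
Fold changes by gene list. Each dot is a tested member of 1 of the 30 lists, placed by its log2 fold change of EWS-FLI1 minus EWS(YS37)-FLI1, the bar marks the list's median and the dashed line the all-gene median of -0.02. Collagens (0.65) and epithelial markers (0.50) lie farthest to the right, and leukocyte markers (-0.64) and ATF4 targets (-0.45) farthest to the left.

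Keratins and other epithelial genes were higher in EWS-FLI1 cells. Of 10 tested epithelial markers 7 were higher and 1 lower, with a median of 0.50. The count of higher members was 3 without EWS(YS37)-FLI1 replicate 1 (median 0.40), 5 without any one EWS-FLI1 library or EWS(YS37)-FLI1 replicate 2, 4 with offsets for transcript length and 3 with glmTreat. KRT17, a keratin of basal epithelium, had 1046, 1025 and 1066 CPM in EWS-FLI1 cells, against 344, 325 and 347 CPM in EWS(YS37)-FLI1 cells (log2 fold change 1.63 ± 0.08 SE, adjusted p = 6.58e-13). KRT14, its basal companion, had 13.3, 18.2 and 17.1 CPM in EWS-FLI1 cells, against 1.14, 1.84 and 1.99 CPM in EWS(YS37)-FLI1 cells (3.28 ± 0.22, adjusted p = 7.64e-11). The groups did not overlap for either keratin, and the mCherry cells lay in between, at 502 ± 55.8 CPM for KRT17 and 8.52 ± 0.755 CPM for KRT14. The 14 markers summed to 1883 to 1944 CPM in EWS-FLI1 cells, 1152 to 1205 CPM in EWS(YS37)-FLI1 cells and 1030 to 1157 CPM in mCherry cells, and KRT19 had no count in EWS(YS37)-FLI1 cells. KRT17 supplied most of the difference between the constructs, and without it the sum was 858.4 to 878.5 CPM in EWS-FLI1 cells, 808.8 to 858.3 CPM in EWS(YS37)-FLI1 cells and 539.9 to 593.7 CPM in mCherry cells. The calls of EPCAM and CDH1, which are epithelial adhesion proteins, were lost without EWS-FLI1 replicate 1 or without EWS(YS37)-FLI1 replicate 1, and that of CDH1 also without EWS-FLI1 replicate 3, EWS(YS37)-FLI1 replicate 2 or EWS(YS37)-FLI1 replicate 3.

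Among 16 tested neuronal genes 6 were higher and 2 lower, with a median of 0.41. NTRK3, the neurotrophin-3 receptor, had 8.74, 10.8 and 8.75 CPM in EWS-FLI1 cells, against 2.16, 2.69 and 2.34 CPM in EWS(YS37)-FLI1 cells (log2 fold change 1.97 ± 0.19 SE, adjusted p = 2.93e-08). The related receptor NTRK2 moved the other way, at 1.99, 2.21 and 1.5 CPM in EWS-FLI1 cells and 5.91, 3.74 and 6.16 CPM in EWS(YS37)-FLI1 cells (-1.47 ± 0.28, adjusted p = 0.000331). MAP2, a microtubule protein of dendrites, was higher by 1.48 ± 0.16. The 23 neuronal markers summed to 725.6 to 736.1 CPM in EWS-FLI1 cells, 548.3 to 587.3 CPM in EWS(YS37)-FLI1 cells and 612 to 687.9 CPM in mCherry cells, and DCX and UCHL1 had no count in EWS-FLI1 cells.

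Genes of the E2F programme, which supply DNA replication at the start of S phase, were mostly lower in EWS-FLI1 cells. Of 48 tested members 1 was higher and 35 lower, with a median of -0.34. E2F2, an activating E2F, had 14.9, 15.8 and 16.4 CPM in EWS-FLI1 cells, against 31, 26.5 and 28.2 CPM in EWS(YS37)-FLI1 cells (log2 fold change -0.86 ± 0.12 SE, adjusted p = 8.1e-06). CDC25A, a phosphatase that activates CDK2, had 35.2, 38.5 and 35.2 CPM in EWS-FLI1 cells, against 58.8, 57.5 and 62.7 CPM in EWS(YS37)-FLI1 cells (-0.72 ± 0.07, adjusted p = 2.57e-08). RRM2, a subunit of ribonucleotide reductase, was lower (-0.66 ± 0.12), and the member that was higher was E2F7 (0.43 ± 0.06), which represses E2F targets. The list's counts were 1 higher and 23 lower with offsets for transcript length, 1 and 15 with limma on log2(TPM + 1), and 0 and 2 when glmTreat asked for a change beyond 0.5. The histone genes given above, which cells also make in S phase, had a median on the other side of 0.

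The cell cycle regulators upstream of E2F split. CDK6 had 561, 490.3 and 479 CPM in EWS-FLI1 cells, against 252, 277 and 239 CPM in EWS(YS37)-FLI1 cells (log2 fold change 0.99 ± 0.08 SE, adjusted p = 6.68e-10). CDKN2B (p15), an inhibitor of CDK4 and CDK6, had 14.3, 15.0 and 11.1 CPM in EWS-FLI1 cells, against 5.34, 1.74 and 2.34 CPM in EWS(YS37)-FLI1 cells (2.11 ± 0.26, adjusted p = 1.35e-06), and without EWS(YS37)-FLI1 replicate 1 the value was 2.73. A kinase and an inhibitor of that kinase were thus both high in EWS-FLI1 cells, where neither overlapped. RB1 (0.62) was also higher, and CDKN1A (p21, -0.64) and CCND1 (cyclin D1, -0.27) were lower. Of 33 G2/M genes 3 were higher and 12 lower, with a median of -0.13, which was -0.07 without EWS(YS37)-FLI1 replicate 2. glmTreat called 1 higher and 0 lower of them.

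Targets of ATF4, the transcription factor of the integrated stress response, were the list with the lowest median among those of over 20 members. Of 36 tested, 2 were higher and 29 lower, with a median of -0.45. ATF4 itself had 483, 508 and 539 CPM in EWS-FLI1 cells, against 677, 736 and 739 CPM in EWS(YS37)-FLI1 cells (log2 fold change -0.49 ± 0.05 SE, adjusted p = 9.04e-08). SHMT2, the mitochondrial enzyme that turns serine into glycine, had 156, 166 and 164 CPM in EWS-FLI1 cells, against 268, 272 and 298 CPM in EWS(YS37)-FLI1 cells (-0.79 ± 0.05, adjusted p = 1.67e-10). CHAC1, which degrades glutathione, had 5.98, 8.08 and 8.38 CPM in EWS-FLI1 cells, against 13.8, 15.4 and 13.2 CPM in EWS(YS37)-FLI1 cells (-0.92 ± 0.18, adjusted p = 0.0003). No library overlapped in these 3 genes. The other lower members included the one-carbon enzymes ALDH1L2 (-1.04 ± 0.16) and MTHFD2 (-0.76 ± 0.07), the serine synthesis enzyme PSAT1 (-0.73 ± 0.07) and asparagine synthetase (ASNS, -0.41 ± 0.08).

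The cystine transporter SLC7A11, another target singled out after its values were seen, had 80.4, 77.8 and 69.5 CPM in EWS-FLI1 cells and 73.8, 82.7 and 75.6 CPM in EWS(YS37)-FLI1 cells, against 154 CPM on average in mCherry cells (EWS-FLI1 minus EWS(YS37)-FLI1 -0.03 ± 0.09, adjusted p = 0.846). DDIT4 (0.37 ± 0.11), which restrains mTORC1, was higher. The ATF4 list had 1 higher member without EWS-FLI1 replicate 2. Chaperones of the endoplasmic reticulum, a separate stress branch, were 4 higher and 2 lower of 19, with a median of 0.01 near that of all genes. Those counts were 3 and 4 without EWS-FLI1 replicate 1 (median -0.02), 6 and 2 without EWS-FLI1 replicate 3 (median 0.07) and 3 and 1 without EWS(YS37)-FLI1 replicate 3.

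NF-kB targets and inhibitors were lower in EWS-FLI1 cells. Of 24 tested 2 were higher and 13 lower, with a median of -0.38. RELB, a subunit of the alternative NF-kB branch, had 19.9, 19.4 and 19.6 CPM in EWS-FLI1 cells, against 44.6, 32.8 and 38.1 CPM in EWS(YS37)-FLI1 cells (log2 fold change -0.97 ± 0.10 SE, adjusted p = 1.19e-07). NFKBIA, the inhibitor that NF-kB itself induces, had 33.9, 29.9 and 32.3 CPM in EWS-FLI1 cells, against 64.2, 56.2 and 54.8 CPM in EWS(YS37)-FLI1 cells (-0.87 ± 0.08, adjusted p = 2.13e-08). IL6, the inflammatory cytokine, had 0.358, 0.263 and 0.913 CPM in EWS-FLI1 cells, against 3.69, 3.26 and 2.90 CPM in EWS(YS37)-FLI1 cells (-2.67 ± 0.52, adjusted p = 0.000343), and without EWS-FLI1 replicate 3 the value was -3.36. All EWS(YS37)-FLI1 libraries were above all EWS-FLI1 libraries for the 3 genes, and mCherry cells were lower still for RELB, at 8.37 ± 1.27 CPM, and for NFKBIA, at 25.1 ± 1.5 CPM.

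RELB was above mCherry with both constructs. It gave 1.22 ± 0.12 for EWS-FLI1 minus mCherry (adjusted p = 1.21e-07) and 2.19 ± 0.11 for EWS(YS37)-FLI1 minus mCherry (adjusted p = 2.72e-12). The chemokine CCL2, which attracts monocytes, had 5.98, 3.62 and 5.32 CPM in EWS-FLI1 cells, against 15.3, 14.3 and 20.7 CPM in EWS(YS37)-FLI1 cells (log2 fold change -1.75 ± 0.22 SE, adjusted p = 1.28e-06), with mCherry cells at 2.47 ± 0.792 CPM. Chemokines as a list were 2 higher and 2 lower of 13 tested, against 14.8% and 16.3% over all genes, and 4 were lower without EWS-FLI1 replicate 3. The 18 listed summed to 522.6 to 602.4 CPM in EWS-FLI1 cells and 114.5 to 135.3 CPM in EWS(YS37)-FLI1 cells. Of 35 interferon-stimulated genes 4 were higher and 10 lower, with a median of -0.34. The median was -0.21 without EWS(YS37)-FLI1 replicate 3, 2 were higher without EWS(YS37)-FLI1 replicate 2, and offsets for transcript length gave 2 higher and 8 lower with a median of -0.18. IFIT3, an antiviral protein, had 1.64, 0.630 and 1.5 CPM in EWS-FLI1 cells, against 6.2, 6.42 and 5.90 CPM in EWS(YS37)-FLI1 cells (-2.29 ± 0.38, adjusted p = 6.21e-05).

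p53 targets were mostly lower, with 2 higher and 15 lower of 25 tested and a median of -0.28. Without EWS(YS37)-FLI1 replicate 2 or replicate 3, 1 was higher. CDKN1A, the p21 inhibitor that p53 induces, had 128, 124 and 128 CPM in EWS-FLI1 cells, against 200.3, 185 and 207 CPM in EWS(YS37)-FLI1 cells (log2 fold change -0.64 ± 0.06 SE, adjusted p = 1.16e-08). FAS, a death receptor, was lower (-0.90 ± 0.16). GDF15, which is counted under both p53 and ATF4, was lower (-0.91 ± 0.19), and its call was lost with offsets for transcript length and with limma on log2(TPM + 1). The mCherry mean of CDKN1A, 133 ± 6.4 CPM, was near the EWS-FLI1 level, and EWS-FLI1mut cells had 169 ± 7.13 CPM.

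**Figure D5:**
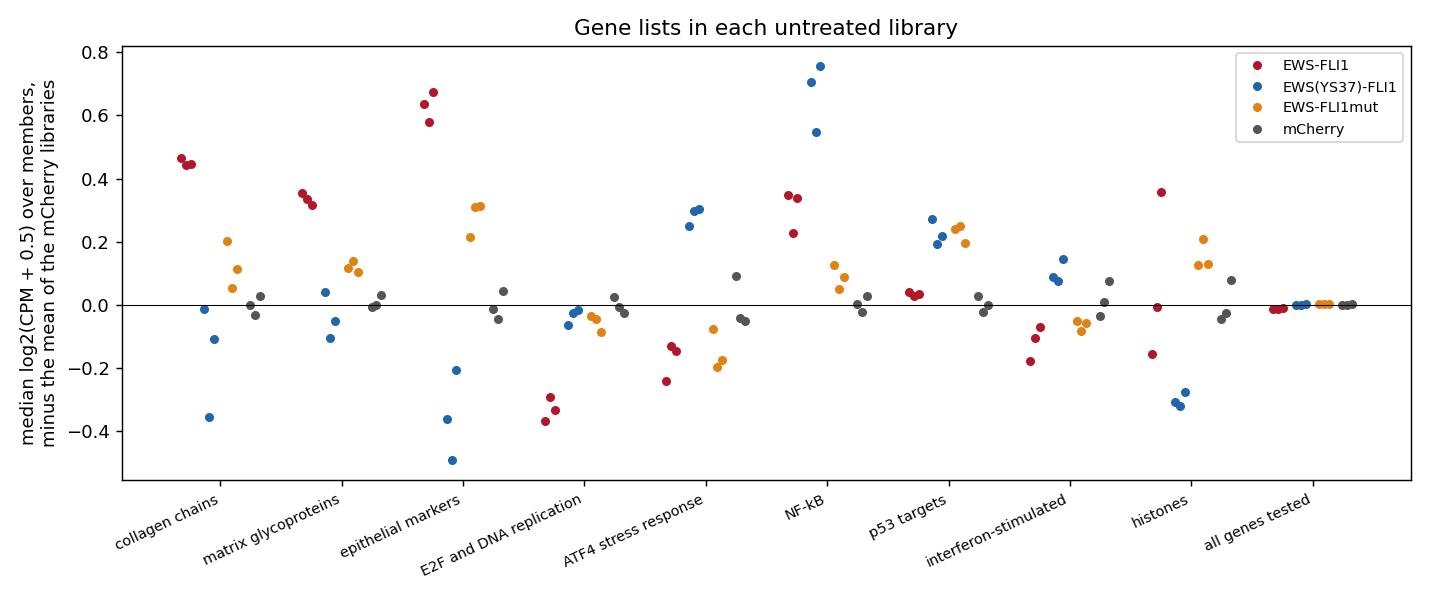
Levels of 10 gene lists by library. Each point is the median over a list's tested members of log2(CPM + 0.5) in 1 library minus the mean of the mCherry libraries, in the order EWS-FLI1, EWS(YS37)-FLI1, EWS-FLI1mut and mCherry. Collagens stand at 0.44 to 0.46 in EWS-FLI1 cells and at -0.36 to -0.01 in EWS(YS37)-FLI1 cells, and ATF4 targets at -0.24 to -0.13 in EWS-FLI1 cells and at 0.25 to 0.30 in EWS(YS37)-FLI1 cells.

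The lists differed in which construct stood away from mCherry. The E2F list lay at -0.37, -0.29 and -0.33 in EWS-FLI1 libraries and at -0.06, -0.03 and -0.02 in EWS(YS37)-FLI1 libraries, relative to mCherry on the log2 scale. The p53 list lay at 0.04, 0.03 and 0.03 in EWS-FLI1 libraries, at 0.27, 0.19 and 0.22 in EWS(YS37)-FLI1 libraries and at 0.24, 0.25 and 0.19 in EWS-FLI1mut libraries. The EWS-FLI1 libraries were thus the ones away from mCherry for E2F genes and the EWS(YS37)-FLI1 libraries for p53 genes. The NF-kB list was above mCherry in both, at 0.35, 0.23 and 0.34 in EWS-FLI1 libraries and at 0.71, 0.55 and 0.76 in EWS(YS37)-FLI1 libraries. By the median of its members the epithelial list lay on opposite sides, at 0.64, 0.58 and 0.67 in EWS-FLI1 libraries and at -0.36, -0.49 and -0.21 in EWS(YS37)-FLI1 libraries. By summed CPM it did not, since EWS(YS37)-FLI1 cells had 1152 to 1205 CPM and mCherry cells 1030 to 1157 CPM. Without KRT17 those sums were 808.8 to 858.3 CPM and 539.9 to 593.7 CPM. These values are descriptions that share the mCherry libraries and carry no test.

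Immediate early genes, which growth factor signals induce through SRF and AP-1, did not move as a block. Of 17 tested 6 were higher and 4 lower, with a median of 0.03. That median was between -0.01 (without EWS-FLI1 replicate 1) and 0.11 (without EWS-FLI1 replicate 2) when 1 library was left out. EGR1 had 187.7, 184.1 and 190.2 CPM in EWS-FLI1 cells, against 119.5, 94.0 and 99.3 CPM in EWS(YS37)-FLI1 cells (log2 fold change 0.85 ± 0.09 SE, adjusted p = 8.97e-08), and FOS had 21.7, 21 and 20.6 CPM in EWS-FLI1 cells, against 10.1, 9.05 and 10.1 CPM in EWS(YS37)-FLI1 cells (1.11 ± 0.14, adjusted p = 1.26e-06). The EWS(YS37)-FLI1 libraries were near the mCherry level in both, which was 102 ± 12.3 CPM for EGR1 and 11 ± 1.42 CPM for FOS. FOSL1, another AP-1 subunit, was lower, at 27.7, 27.5 and 27.5 CPM in EWS-FLI1 cells and 67.8, 53.6 and 64.2 CPM in EWS(YS37)-FLI1 cells (-1.17 ± 0.08, adjusted p = 3.69e-10), and so was MYC (-0.75 ± 0.07).

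Genes known from Ewing sarcoma cells as activated by EWS-FLI1 were 8 higher and 3 lower of 31 tested, with a median of 0.12. The median was 0.21 without EWS-FLI1 replicate 3 and 0.19 without EWS(YS37)-FLI1 replicate 2, and offsets for transcript length gave 5 higher and 2 lower (0.24). EGR2, a zinc finger factor of neural crest, had 9.76, 7.25 and 6.71 CPM in EWS-FLI1 cells, against 2.62, 1.53 and 1.48 CPM in EWS(YS37)-FLI1 cells (log2 fold change 2.08 ± 0.29 SE, adjusted p = 5.95e-06), and EWS-FLI1 minus mCherry was 1.16 ± 0.27 (adjusted p = 0.00338). SOX2, a stem cell factor, had 19.5, 24.2 and 23.4 CPM in EWS-FLI1 cells, against 8.70, 7.21 and 9.77 CPM in EWS(YS37)-FLI1 cells (1.39 ± 0.16, adjusted p = 3.27e-07), with mCherry cells at 24.8 ± 5.79 CPM. CAV1 (caveolin-1), the scaffold of caveolae, had 138, 129.9 and 129 CPM in EWS-FLI1 cells, against 342, 399 and 364 CPM in EWS(YS37)-FLI1 cells (-1.48 ± 0.08, adjusted p = 1.12e-12). EGR2 was thus above mCherry in EWS-FLI1 cells, while SOX2 differed from mCherry by -0.14 ± 0.15 there (adjusted p = 0.546) and was low in EWS(YS37)-FLI1 cells.

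The transcription factors NKX2-2 and NR0B1, well-known EWS-FLI1 targets that were singled out after their values were seen, were not called. NKX2-2 had 9.46, 8.40 and 8.33 CPM in EWS-FLI1 cells and 9.95, 7.48 and 9.01 CPM in EWS(YS37)-FLI1 cells (log2 fold change -0.01 ± 0.15 SE, adjusted p = 0.961), and NR0B1 had 1.53, 1.42 and 1.18 CPM in EWS-FLI1 cells and 0.966, 0.842 and 1.73 CPM in EWS(YS37)-FLI1 cells (0.22 ± 0.49, adjusted p = 0.782). Genes known as lowered by EWS-FLI1 in Ewing sarcoma were 11 higher and 4 lower of 19, with a median of 0.39. COL3A1 and COL1A1 belong to them, as do PHLDA1 (1.35 ± 0.15) and TIMP1, so this list and the collagens share members. Its count of lower members was 2 without EWS(YS37)-FLI1 replicate 1. Relative to mCherry on the log2 scale, the list known as lowered lay at 0.46, 0.51 and 0.43 in EWS-FLI1 libraries. It lay at 0.12, 0.06 and 0.16 in EWS(YS37)-FLI1 libraries. The list known as activated lay at 0.08, 0.03 and -0.03 in EWS-FLI1 libraries and at -0.05, -0.05 and -0.03 in EWS(YS37)-FLI1 libraries. These levels carry no test. Subunits of the BAF complex, an interaction partner of the tyrosine-rich domain, were 5 higher and 3 lower of 24, with a median of 0.04. Over all genes 14.8% were higher and 16.3% lower. The BAF counts were 3 higher and 1 lower without EWS-FLI1 replicate 2 or EWS(YS37)-FLI1 replicate 3.

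Wnt pathway genes were 10 higher and 1 lower of 32 tested, with a median of 0.16, and 2 were lower without EWS-FLI1 replicate 3. WNT11, a ligand of the non-canonical branch, had 6.18, 7.88 and 5.48 CPM in EWS-FLI1 cells, against 1.31, 1.79 and 1.27 CPM in EWS(YS37)-FLI1 cells (log2 fold change 2.15 ± 0.30 SE, adjusted p = 7.58e-06). LGR5, the R-spondin receptor of stem cells, had 11.7, 11.2 and 8.91 CPM in EWS-FLI1 cells, against 2.96, 3.37 and 1.88 CPM in EWS(YS37)-FLI1 cells (1.95 ± 0.19, adjusted p = 5.26e-08). AXIN2, the feedback target of canonical Wnt signalling and singled out after its values were seen, had 29.8, 34.8 and 33.1 CPM in EWS-FLI1 cells and 34.4, 31.4 and 33.4 CPM in EWS(YS37)-FLI1 cells (-0.02 ± 0.09, adjusted p = 0.885). The ligand and the receptor did not overlap between the groups, and AXIN2 did. Among other ETS factors, EHF, of epithelial cells, was higher by 2.98 ± 0.42, with 0.01 ± 0.34 for EWS-FLI1 minus mCherry (adjusted p = 0.986), and ERG by 1.05 ± 0.19.

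EWS-FLI1mut gives a second view of the leading genes, although the change in it is not defined. EWS-FLI1 minus EWS-FLI1mut called 2732 genes (16.3%) and EWS(YS37)-FLI1 minus EWS-FLI1mut 4562 genes (27.2%). For COL3A1, EWS-FLI1mut cells had 81.3 ± 4.29 CPM, below the EWS-FLI1 and above the EWS(YS37)-FLI1 libraries. EFEMP1 had 237 ± 2.95 CPM in EWS-FLI1mut cells, nearer to EWS-FLI1 cells. CDK6 had 289 ± 25.4 CPM there, nearer to EWS(YS37)-FLI1 cells. CAV1 had 321 ± 35.4 CPM, between EWS-FLI1 and EWS(YS37)-FLI1 cells and nearer to the latter.

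Promoters were searched for 5 short motifs on both strands, from 250 bases before to 50 after the start of each gene in RefSeq (GRCh38.p14), for 11881 tested genes with a promoter. The AP-1 motif TGANTCA was present in 9.75% of 277 promoters of genes higher by at least 1, in 10.3% of 185 promoters of genes lower by at least 1 and in 5.02% of all. The ATF4 motif TGATGNAA was present in 1.81%, 5.41% and 1.84% of the same groups. GGAAGGAA, a pair of adjoining ETS cores, was present in 4.33%, 4.86% and 3.55%. The E2F motif TTTNGCGC was present in 1.44%, 1.62% and 2.78%, and the NF-kB motif GGANTTTCC in 1.44%, 1.62% and 1.62%. The AP-1 motif reads the same on both strands. None of these shares was tested, and a match is not a binding site.

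The following promoters are shown as examples of genes described above whose promoter holds a motif, which is in capitals. CAPN6 (higher, chrX:111270434-111270733, minus strand) has 1 AP-1 motif, SBSN (suprabasin of epidermis, among the leading lower genes at a log2 fold change of -3.33, chr19:35528262-35528561, minus strand) has 2, CHAC1 (lower, chr15:40953221-40953520, plus strand) has 1 ATF4 motif read on the other strand, and NFKBIA (lower, chr14:35404700-35404999, minus strand) has 2 NF-kB motifs. Other members of the NF-kB list hold that motif too, IL6 among them. Each is written 5′ to 3′ on the strand of its gene.
CAPN6: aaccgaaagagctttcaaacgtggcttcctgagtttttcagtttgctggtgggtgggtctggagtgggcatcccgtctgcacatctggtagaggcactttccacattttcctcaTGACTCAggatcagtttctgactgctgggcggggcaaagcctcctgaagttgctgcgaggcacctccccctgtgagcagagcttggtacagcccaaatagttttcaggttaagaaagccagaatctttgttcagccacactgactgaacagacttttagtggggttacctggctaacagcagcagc
SBSN: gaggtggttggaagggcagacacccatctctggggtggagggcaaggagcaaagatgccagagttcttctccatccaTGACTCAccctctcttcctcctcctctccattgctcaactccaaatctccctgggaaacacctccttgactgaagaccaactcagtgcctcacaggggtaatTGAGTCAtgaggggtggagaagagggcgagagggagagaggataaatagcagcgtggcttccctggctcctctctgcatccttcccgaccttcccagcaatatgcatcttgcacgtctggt
CHAC1: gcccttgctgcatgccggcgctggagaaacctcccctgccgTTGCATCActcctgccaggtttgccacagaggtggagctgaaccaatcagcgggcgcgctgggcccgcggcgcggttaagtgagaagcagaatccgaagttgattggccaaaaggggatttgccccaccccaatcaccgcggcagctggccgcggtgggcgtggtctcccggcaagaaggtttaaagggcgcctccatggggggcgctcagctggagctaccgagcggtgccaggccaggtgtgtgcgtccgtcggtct
NFKBIA: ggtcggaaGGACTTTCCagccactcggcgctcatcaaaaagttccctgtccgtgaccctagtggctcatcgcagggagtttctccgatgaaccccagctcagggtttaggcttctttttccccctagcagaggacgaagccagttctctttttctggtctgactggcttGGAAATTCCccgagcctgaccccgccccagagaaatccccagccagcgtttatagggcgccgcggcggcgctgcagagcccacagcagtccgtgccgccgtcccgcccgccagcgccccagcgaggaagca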

How the data were processed

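The authors deposited 1 transcript table per library, which per the file headers gives kallisto's estimated counts (no normalization), TPM scaled by transcript length, and an effective length in bases. The submitters' processing notes name kallisto 0.46, CASAVA and hg38. The transcript set and the strandedness are not given in the sources used here, so antisense partners cannot be told apart.

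Of 188753 transcripts, 169797 matched GENCODE 29 by identifier, and their estimated counts were added up by gene, then rounded. Libraries held 16261034 to 20270637 counts. edgeR 4.0.16 in R 4.3.3 (TMM, filterByExpr, quasi-likelihood, 1 mean per group, all 18 libraries) tested 16788 genes with 12 residual degrees of freedom and was tested on simulated data. Benjamini-Hochberg adjustment ran over every gene tested, with calls at an adjusted p under 0.05. CPM are TMM-scaled, ± is the SD over 3 libraries for a level and the SE for a log2 fold change, which is EWS-FLI1 minus EWS(YS37)-FLI1 unless named. Alternatives were other scaling, filters, libraries, length offsets, a replicate block, glmTreat, DESeq2 1.42.0 and limma 3.58.1. The offsets for transcript length took each gene's average effective length in a library relative to that gene's mean over libraries. limma used log2(TPM + 1), whose pseudocount shrinks the fold changes of low genes, R3HDML to 3.22 and KIAA1210 to 2.54.

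Genes and lists were chosen with earlier results of these data known. The rule named FLI1, EWSR1, R3HDML, KIAA1210, COL3A1 and ITGAX, the 14 protein-coding genes higher and the 14 lower with the largest fold changes among called genes without overlap and averaging 5 CPM or more where higher, and up to 6 called members per list. Not every named gene is printed, some results are not reported here, and other members are given as values or as singled out afterwards. Over all tested genes, libraries of the 2 groups with the same replicate number did not detectably deviate together (r 0.00, -0.03 and 0.00). The log2 difference between the longest and the shortest bin of transcripts was 0.101, 0.076 and 0.015 in EWS-FLI1 replicates 1 to 3. It was -0.017, -0.020 and -0.049 in EWS(YS37)-FLI1 replicates 1 to 3, and also fell from replicate 1 to 3 in EWS-FLI1mut and mCherry cells. Whether the numbers pair anything is thus not known. No 2 libraries of a group were duplicates: their counts differed by more than sampling noise.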

Additional observations from a re-analysis of the deposited data

How the results depend on the processing

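The 5225 calls were 5179 with RLE size factors, 5182 with no scaling, 5235 with no filter, 4968 from the 6 libraries alone, 5259 from the 12 untreated ones and 5348 with DESeq2, and 4248 to 4597 when 1 library was left out. The replicate block gave 5260. The labels share replicate numbers, and do not say what a shared number means. Offsets for transcript length gave 3004 calls, with 1543 genes called higher and 1461 genes called lower, and added offsets for length and GC content, chosen after seeing the data, gave 5439. glmTreat, which asks for a change beyond 0.5, gave 708 calls, 437 higher and 271 lower, of which 180 were lower by at least 1. limma on log2(TPM + 1) gave 2990 calls, of which 1139 were lower, 262 higher by at least 1 and 120 lower by at least 1. The cause of the drop with length offsets was not tested. Of 177 genes under the naming rule 175 were called, and 80 lost the call under at least 1 of the 17 alternatives, 47 of them not counting glmTreat. Of those 175 named genes 0 changed sign under an alternative that tested them, and the sign of the other called genes was not checked. With offsets for length, with glmTreat and with limma the ATF4 list had 1, 0 and 2 higher and 21, 7 and 19 lower members, and the NF-kB list 2, 0 and 2 higher and 11, 5 and 10 lower. The median over all genes was 0.04 with limma, against -0.02 in the main fit. With limma on log2(TPM + 1) the median was 0.30 for collagens, 0.12 for collagen processing, 0.10 for integrins, 0.24 for Wnt genes, 0.19 for neuronal genes, -0.04 for G2/M genes, -0.08 for interferon genes (2 higher, 6 lower), -0.08 for endothelial markers, -0.32 for leukocyte markers (4 lower) and -0.08 for HOX genes (2 higher, 5 lower). With offsets for transcript length it was 0.31 for Wnt genes and -0.12 for endothelial markers, and HOX genes were 1 higher and 5 lower, smooth muscle genes 8 and 1, integrins 6 and 2 and BAF subunits 2 and 0. Genes under about 1 CPM, such as IL6 in EWS-FLI1 cells, rest on few counts per library.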

Other observations

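Genes of cholesterol synthesis and uptake were 9 higher and 1 lower of 23 tested in EWS-FLI1 cells, with a median log2 fold change of 0.17. Without EWS-FLI1 replicate 1 they were 5 higher and 0 lower (median 0.09), and glmTreat called 0 in either direction. That library lay at 0.33 relative to mCherry, against 0.10 and 0.17 for the other EWS-FLI1 libraries and 0.06 to 0.07 for the EWS(YS37)-FLI1 libraries. HOX genes set position along the body axis. They were 2 higher and 9 lower of 34 tested (14.8% and 16.3% over all genes), with a median of -0.22. The counts were 3 and 7 (median -0.12) without EWS-FLI1 replicate 2 and 1 and 5 (median -0.13) without EWS(YS37)-FLI1 replicate 2, and 1 was higher without EWS-FLI1 replicate 1, EWS(YS37)-FLI1 replicate 1 or EWS(YS37)-FLI1 replicate 3. HOXA9 had 16.7, 14.9 and 12.4 CPM in EWS-FLI1 cells, against 25.4, 25.4 and 28.1 CPM in EWS(YS37)-FLI1 cells (-0.84 ± 0.12, adjusted p = 6.13e-06). The groups did not overlap for HOXA9, as for 42.9% of all genes tested.

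Chromosomes differed in their median. The 168 tested genes of chromosome 21 had a median of -0.11, with 19 higher and 38 lower, the 1016 genes of chromosome 17 a median of -0.11, with 90 higher and 249 lower, the 777 genes of chromosome 16 a median of -0.11, with 94 higher and 163 lower, and the 262 genes of chromosome 13 a median of 0.07, with 44 higher and 21 lower. On chromosome 17 EWS-FLI1 minus mCherry had a median of -0.09, against -0.02 over all genes, and EWS(YS37)-FLI1 minus mCherry 0.01, against 0.00 over all genes.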
